A study of Mus musculus with 20 samples.

Results

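Adipogenic transcription factors are DNA-binding proteins that direct precursor cells to become fat cells and that keep mature fat cells storing and releasing lipid. The 9 factors described here are Pparg, Cebpa, Rxra, Cebpb, Cebpd, Klf15, Zfp423, Ebf1 and Ebf2. They were taken by gene symbol from the 19505 genes that the arrays measured, and each of the 9 was read by 1 probe set, a group of probes for 1 gene. Gene expression was measured in the whole epididymal fat pad of 20 male C57BL/6 mice aged 28 weeks, with 1 array per mouse. The 10 cre mice had the genotype TNF-αFlox/Flox, LyzMcre+/-, and the 10 wt mice were littermates with the genotype TNF-αFlox/Flox, LyzMcre-/-. Both genotypes therefore carried floxed Tnf alleles, and all mice ate chow to an age of 10 weeks and then, for 18 weeks, a purified diet with 40% of its energy from fat. LyzM-Cre is active in macrophages and other myeloid cells, so the model does not aim at Tnf in fat cells. The sources used here do not say which exons of Tnf the loxP sites flank. The titles place the mice in 2 batches, without saying what a batch is, and each batch holds 5 cre and 5 wt mice. Odd replicate numbers belong to batch 1 and even numbers to batch 2.

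The factors act in a cascade. Zfp423, a zinc finger protein, and the early B cell factors Ebf1 and Ebf2 mark and commit precursors. Cebpb and Cebpd are induced within the first steps of differentiation and switch on Pparg and Cebpa, which sustain each other, and PPARG binds DNA as a pair with RXRA. Klf15, a Krüppel-like factor induced by glucocorticoids, comes late and supports genes of glucose uptake and lipid handling in mature fat cells. TNF-α is known to repress Pparg and Cebpa in cultured fat cells, and obese epididymal fat holds many macrophages, for which Adgre1 (the surface protein F4/80) is a common marker.

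RefSeq promoter windows of 300 bases on GRCm38.p6, the assembly that mm10 names, were found for 7 of the 9 factors and not for Cebpd and Ebf2. Windows of Pparg, Cebpa, Klf15 and Zfp423 are shown, since the results below turn on these genes, and Pparg has 3 windows, of which the first and the third are printed. Capitals mark matches, on either strand, of TTNNGNAA (the C/EBP pattern), CCCNNGGG (the EBF pattern) and AGGTCA (the core sequence that nuclear receptors such as PPARG and RXRA recognise).
Pparg window 1, chr6:115360894-115361193, plus strand: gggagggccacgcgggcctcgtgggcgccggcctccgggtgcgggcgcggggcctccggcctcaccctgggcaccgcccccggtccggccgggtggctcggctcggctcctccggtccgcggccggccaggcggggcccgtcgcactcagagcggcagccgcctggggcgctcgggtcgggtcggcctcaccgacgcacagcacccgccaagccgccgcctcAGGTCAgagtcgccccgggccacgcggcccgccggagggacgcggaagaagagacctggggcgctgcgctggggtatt
Pparg window 3, chr6:115421816-115422115, plus strand: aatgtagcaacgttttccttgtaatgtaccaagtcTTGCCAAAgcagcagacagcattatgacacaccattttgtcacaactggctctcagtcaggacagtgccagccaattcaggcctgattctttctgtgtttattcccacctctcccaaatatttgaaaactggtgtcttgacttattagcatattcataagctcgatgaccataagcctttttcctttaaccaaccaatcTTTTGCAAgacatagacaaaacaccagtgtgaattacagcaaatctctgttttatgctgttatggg
Cebpa, chr7:35119043-35119342, plus strand: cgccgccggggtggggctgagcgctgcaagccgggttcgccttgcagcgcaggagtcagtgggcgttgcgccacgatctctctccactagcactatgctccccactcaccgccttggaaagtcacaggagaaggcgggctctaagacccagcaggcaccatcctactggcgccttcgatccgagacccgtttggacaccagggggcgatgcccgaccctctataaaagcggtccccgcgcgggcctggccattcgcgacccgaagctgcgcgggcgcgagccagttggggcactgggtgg
Klf15, chr6:90462326-90462625, plus strand: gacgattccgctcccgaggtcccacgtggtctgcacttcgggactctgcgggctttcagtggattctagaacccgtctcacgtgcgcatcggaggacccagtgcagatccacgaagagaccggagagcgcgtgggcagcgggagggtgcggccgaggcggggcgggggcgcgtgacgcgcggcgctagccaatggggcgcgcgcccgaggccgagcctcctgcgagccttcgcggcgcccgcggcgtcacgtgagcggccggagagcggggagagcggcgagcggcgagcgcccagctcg
Zfp423 window 1, chr8:87804390-87804689, minus strand: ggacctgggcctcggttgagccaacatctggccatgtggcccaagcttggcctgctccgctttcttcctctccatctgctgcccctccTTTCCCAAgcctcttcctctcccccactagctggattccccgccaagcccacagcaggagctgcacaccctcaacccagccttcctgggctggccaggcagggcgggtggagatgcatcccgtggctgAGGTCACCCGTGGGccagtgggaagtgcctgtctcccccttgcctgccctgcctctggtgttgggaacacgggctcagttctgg

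The third Pparg window held 2 C/EBP matches, at positions −215 and −16, where each window counts from its own transcription start, and the first held 1 nuclear receptor core at −28. Zfp423 has 2 windows, and in the printed one a C/EBP match stood at −162, a nuclear receptor core at −34 and an EBF match at −28, directly after it, while the other held 2 C/EBP matches, at −131 and 22. The windows of Cebpa and Klf15 held none of these letters. Of all 32851 promoter windows, 40.7% held the C/EBP pattern, 13.7% the EBF pattern and 16.3% the nuclear receptor core, so single matches are common. A match describes letters and is not a measured binding site. The sources used here do not say which of the Pparg starts the probe set reads.

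The deposited values are log2 signals, so a difference of 1 is a doubling, and how precise a value is depends on the number of mice. Tnf, the targeted gene, ranged from 3.91 to 5.34 in cre mice, against 5.78 to 7.80 in wt mice, without overlap (log2 difference −1.99, limma adjusted p = 0.000822, exact two-sided permutation p = 3.15e-05, the smallest that the 63504 regroupings within batches allow). All 17 measured genes of a list of 20 mature adipocyte markers and PPARG or CEBPA targets had mean signals above a background level. That level was the 95th percentile (5.59) of 1091 olfactory receptor probe sets, which should be silent in fat. Markers of macrophages and of liver lay above it too, so the level shows detection and does not tell tissues apart. All values of the 9 factors also lay above that level, the lowest being 6.86. The mean of the adipocyte list lay between 16.20 and 17.04 in cre mice. It lay between 16.32 and 17.04 in 8 wt mice, while wt replicates 5 and 6 stood apart with 15.30 and 14.68. Most results for the factors are therefore given with and without these 2 mice. Liver transcripts were also present, with means of 5 liver markers from 7.17 to 13.46 in cre mice and from 5.88 to 15.11 in wt mice. They averaged 10.67 ± 2.07 in cre mice and 8.94 ± 2.80 in wt mice (SD, n = 10 each). All 5 liver markers had higher means in cre mice, with a median difference of 1.80 and 0 past adjustment by limma.

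Neither genotype separated from the other in any factor. Pparg, the master regulator of the fat cell, had the largest difference of the 9. In cre mice of batch 1 its signals were 14.14, 13.81, 14.74, 15.04 and 14.73, against 14.41, 14.24, 13.02, 14.39 and 13.73 in wt mice. In batch 2 they were 14.28, 14.17, 14.46, 14.52 and 14.52 in cre mice, against 14.42, 14.39, 12.20, 14.15 and 14.34 in wt mice. Of the 10 cre mice 9 lay above the wt mean, but the groups overlapped, and the lowest signals were those of wt replicates 6 and 5. Pparg averaged 14.44 ± 0.35 in cre mice and 13.93 ± 0.75 in wt mice (SD, n = 10 each), a log2 difference of 0.51 (SE 0.25, 95% interval −0.01 to 1.03, limma adjusted p = 0.797, exact permutation p = 0.0619). Within batches Pparg differed by 0.53 (batch 1) and 0.49 (batch 2). Without wt replicates 5 and 6 it was 0.18, at an equal adipocyte list mean it was 0.26 (limma adjusted p = 0.837), and with the liver list mean in the fit it was 0.49. In whole tissue, fewer cells of a type and less RNA per cell cannot be told apart.

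Cebpa, the partner of Pparg in maintaining the mature fat cell, had its lowest, median and highest signals at 13.47, 13.90 and 14.34 in cre mice, against 12.18, 13.81 and 14.19 in wt mice. Its difference of 0.33 (SE 0.24, limma adjusted p = 0.841) came with the same mice: wt replicates 5 and 6 had 12.29 and 12.18, and every other mouse at least 13.39. Without them the Cebpa difference was −0.0028, and with the liver list mean in the fit it was 0.25. Rxra, the DNA-binding partner of PPARG, averaged 10.43 ± 0.26 in cre mice and 10.48 ± 0.50 in wt mice (SD, n = 10 each), a difference of −0.05 (95% interval −0.42 to 0.33, limma adjusted p = 0.972).

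The early factors and Klf15 overlapped widely between genotypes. Cebpb had signals of 7.95, 8.39 and 8.63 (lowest, median and highest) in cre mice, against 7.66, 8.19 and 8.67 in wt mice, a difference of 0.20 (SE 0.14, limma adjusted p = 0.838). Cebpd, which glucocorticoids and inflammatory signals also induce, ranged from 9.64 to 11.87 in cre mice, against 8.89 to 11.46 in wt mice, a difference of 0.25 (SE 0.32, limma adjusted p = 0.903). Klf15 ranged from 7.19 to 8.42 in cre mice, against 6.86 to 8.55 in wt mice, and its difference was 0.06 (95% interval −0.36 to 0.47, limma adjusted p = 0.969).

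Among the factors of commitment, Ebf2, which marks precursors and is also known from brown fat, had lowest, median and highest signals of 8.04, 8.63 and 9.63 in cre mice, against 7.52, 8.12 and 9.34 in wt mice. The Ebf2 difference was 0.38 (SE 0.25, limma adjusted p = 0.826). It was 0.39 without wt replicates 5 and 6 and 0.39 at an equal adipocyte list mean. Ebf1, a factor of both precursors and mature fat cells, ranged from 13.50 to 14.95 in cre mice, against 12.64 to 14.60 in wt mice (difference 0.32, SE 0.23, limma adjusted p = 0.835). Zfp423, which commits precursors and restrains the thermogenic programme in white fat cells, ranged from 10.06 to 11.96 in cre mice, against 8.20 to 11.79 in wt mice (difference 0.24, SE 0.37, limma adjusted p = 0.925). For both genes the lowest signal was that of wt replicate 6.

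**Figure D1:**
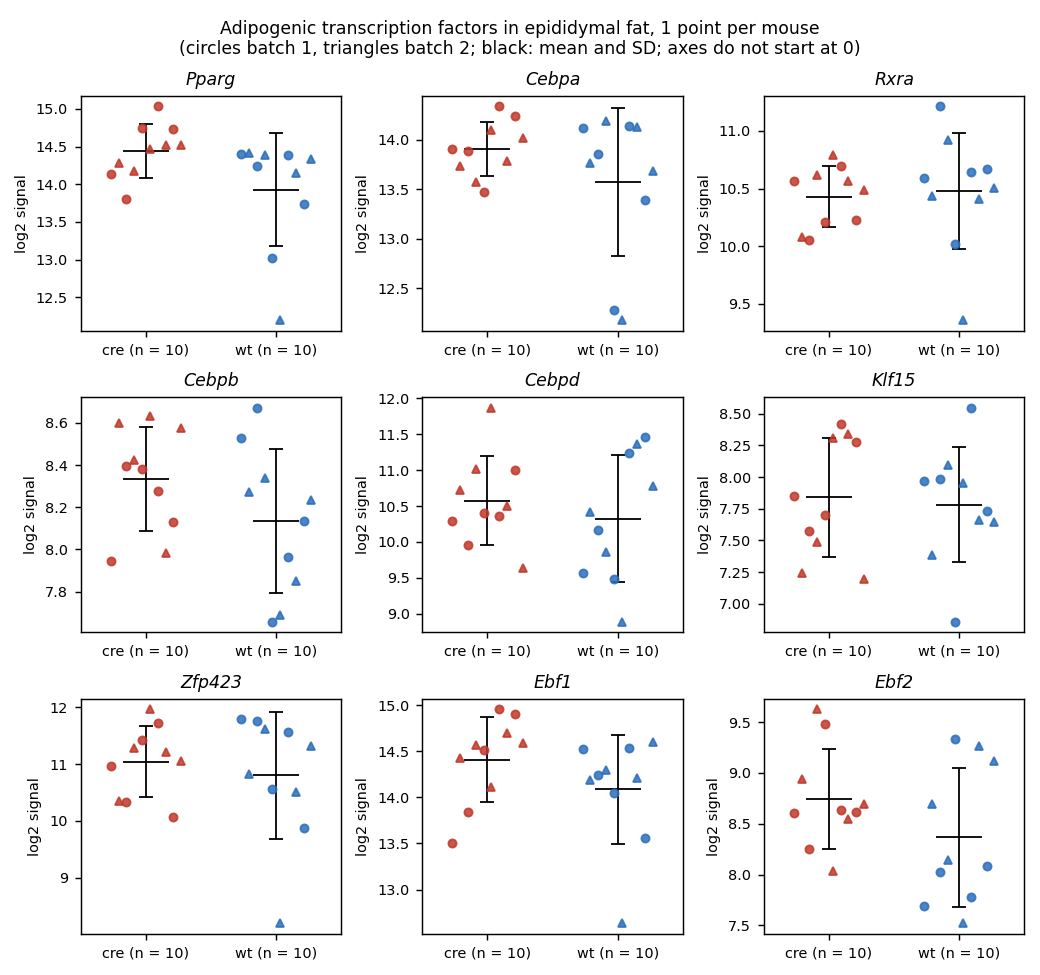
Log2 signal (vertical axis, cut above 0) of each factor in 10 cre and 10 wt mice, 1 point per mouse, circles for batch 1 and triangles for batch 2, with the mean and SD in black. The genotypes overlap in all 9 panels, and the lowest points of Pparg and Cebpa are wt replicates 5 and 6.

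Of the 9 factors 0 passed an adjusted p of 0.05 by limma, and 0 had an unadjusted p under 0.05. Across the array 0.00450% of probe sets passed adjustment, 6.29% had an unadjusted p under 0.05 and 1.04% met the selection that the study states, which adds a fold of at least 1.5. Signals were higher in cre mice for 8 of the 9, against 10046 of 19505 over all genes. The median difference of the 9 was 0.25, against 0.01 over all genes. Without wt replicates 5 and 6 the count was 4 of the 9 (Pparg, Cebpb, Ebf1 and Ebf2), against 10043 of 19505. The median difference of the 9 was then −0.0028, against 0.0062 over all genes. The genotype difference did not differ detectably between batches for any factor (smallest limma adjusted p of the interaction 0.801, for Rxra), although Zfp423 differed by −0.21 in batch 1 and by 0.68 in batch 2.

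**Figure D2:**
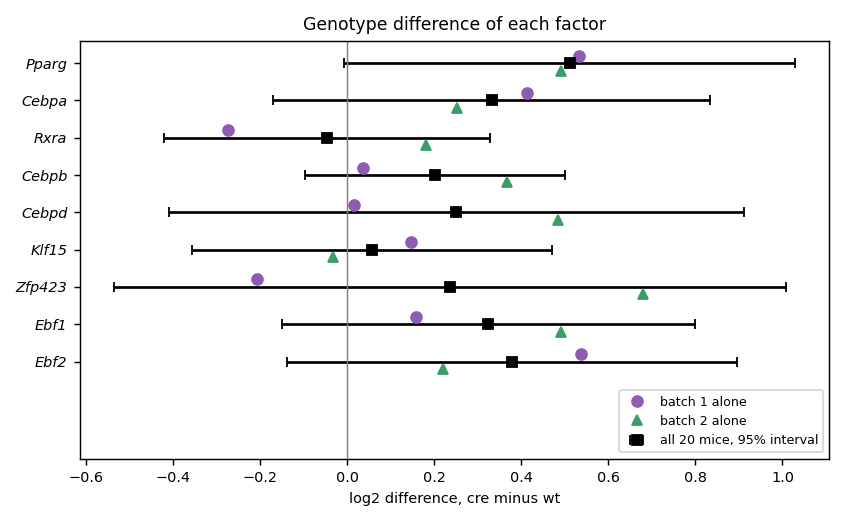
Log2 difference, cre minus wt, of each factor (horizontal axis) with its 95% interval over 20 mice (squares) and within batch 1 (circles) and batch 2 (triangles). All 9 intervals contain 0, and the interval of Pparg, from −0.01 to 1.03, comes closest to leaving it out.

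Across all 20 mice, Klf15 was the 1 factor whose slope on Adgre1 passed adjustment, and Adgre1 itself differed little between genotypes (difference −0.28, limma adjusted p = 0.912). In cre mice of batch 1 (replicates 1, 3, 5, 7 and 9) Klf15 had signals of 7.85, 7.58, 7.70, 8.42 and 8.28, where Adgre1 had 12.91, 13.28, 12.67, 11.01 and 10.66. In wt mice of that batch Klf15 had 7.97, 7.98, 6.86, 8.55 and 7.73, where Adgre1 had 12.41, 11.41, 14.28, 12.27 and 13.50. The lowest Klf15 signal thus came with the highest Adgre1 signal, in wt replicate 5, and the cre mice with the least Adgre1, replicates 9 and 7, had high Klf15. In cre mice of batch 2 (replicates 2, 4, 6, 8 and 10) Klf15 had 7.24, 7.49, 8.30, 8.34 and 7.19, where Adgre1 had 13.38, 13.91, 12.43, 12.69 and 12.22. In wt mice of batch 2 Klf15 had 7.38, 8.09, 7.95, 7.66 and 7.65, where Adgre1 had 13.71, 12.17, 12.35, 12.69 and 13.11. Cre replicate 10 went against the pattern, with the lowest Klf15 of the cre mice and Adgre1 below their median.

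With genotype and batch in the fit, Klf15 fell by 0.34 on the log2 scale for each log2 unit of Adgre1 (SE 0.09, 95% interval −0.53 to −0.16, limma adjusted p = 0.0181). Of all probe sets 8.82% passed adjustment, 2.56% with a negative slope. Centred within genotype and batch, Klf15 and Adgre1 correlated at Pearson's r = −0.69 (permutation p = 0.00284) and Spearman's rho = −0.65 (permutation p = 0.00561, n = 20, 1 of 9 such relations computed). Without cre replicates 9 and 7, the mice farthest from the Adgre1 median, r was −0.64 (permutation p = 0.0238) and the slope −0.38 (limma adjusted p = 0.101). The correlation was −0.81 in batch 1 (permutation p = 0.00819) and −0.49 in batch 2 (permutation p = 0.196). It was −0.58 in cre mice (permutation p = 0.0649) and −0.81 in wt mice (permutation p = 0.0161). Spearman's rho was −0.33 in cre mice (permutation p = 0.297) and −0.90 in wt mice (permutation p = 0.00191). The slopes of the genotypes differed by 0.15, cre minus wt (95% interval −0.23 to 0.53, limma adjusted p = 0.995). The mean of 16 other macrophage markers in place of Adgre1 gave a slope of −0.38 (limma adjusted p = 0.0316, with 10.3% of probe sets called).

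The call for Klf15 rested on a single mouse, and the order of the factors by r changed without wt replicates 5 and 6. Without wt replicate 5 the slope was −0.27 (limma adjusted p = 0.144), and without wt replicates 5 and 6 it was −0.27 (limma adjusted p = 0.135). In those 18 mice r was −0.58 for Klf15 (permutation p = 0.0189), −0.75 for Cebpa (permutation p = 0.00312), −0.70 for Pparg (permutation p = 0.018) and −0.62 for Ebf1 (permutation p = 0.0515). Without any other single mouse the Klf15 slope passed adjustment, with slopes from −0.38 to −0.33. With the adipocyte list mean in the fit the Klf15 slope on Adgre1 was −0.32 (limma adjusted p = 0.0509, with 9.37% of probe sets called), and Klf15 followed the adipocyte list itself with a slope of 0.08 in that fit (limma adjusted p = 0.861).

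**Figure D3:**
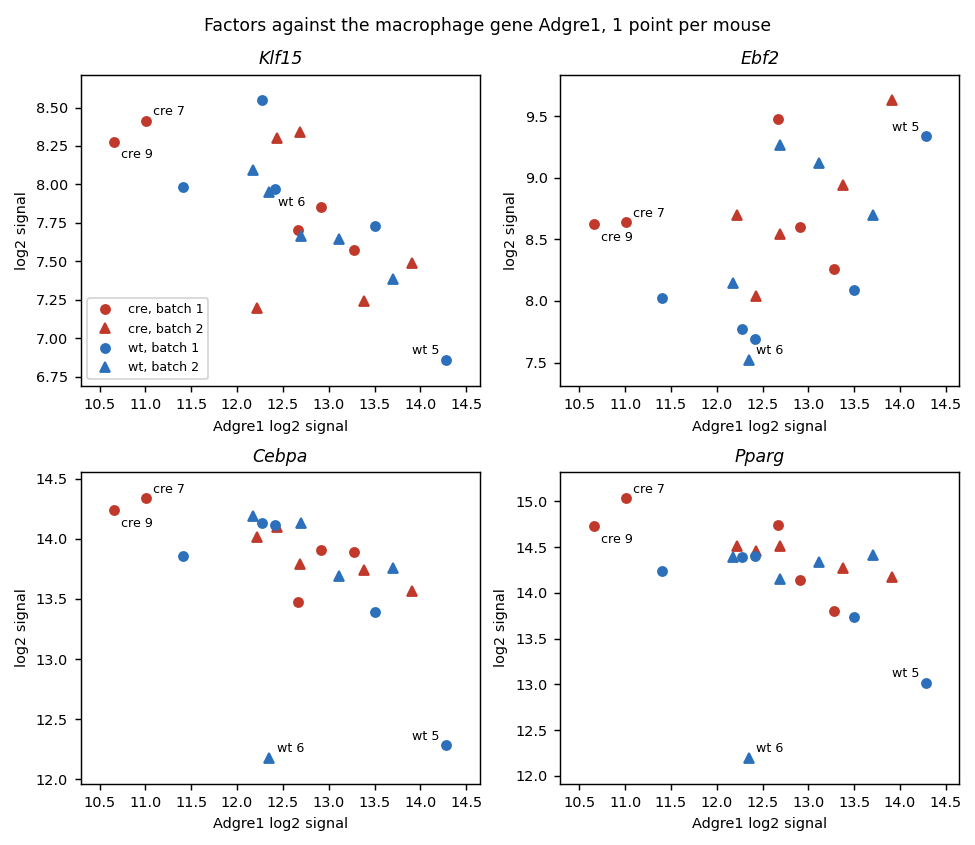
Log2 signal of Klf15, Ebf2, Cebpa and Pparg (vertical axes) against the log2 signal of Adgre1 (horizontal axes), 1 point per mouse, red for cre and blue for wt, circles for batch 1 and triangles for batch 2. Klf15 slopes downward over 20 mice, while wt replicates 5 and 6 lie apart in the panels of Cebpa and Pparg.

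The remaining factors did not pass adjustment against Adgre1 over 20 mice. Cebpa had a slope of −0.30 (SE 0.13, limma adjusted p = 0.157) with r = −0.48 (permutation p = 0.0387) and rho = −0.66 (permutation p = 0.00311), and without cre replicates 9 and 7 r was −0.44 (permutation p = 0.148). The Cebpa correlation was −0.75 in batch 1 and −0.05 in batch 2, where wt replicate 6 combined low Cebpa with Adgre1 of 12.35. Pparg had a slope of −0.24 (SE 0.14, limma adjusted p = 0.311) with r = −0.39 (permutation p = 0.0922) and rho = −0.47 (permutation p = 0.0501), and its r was −0.83 in batch 1 and 0.17 in batch 2. Without wt replicate 6 alone the slopes of Pparg, Cebpa and Klf15 were −0.34, −0.38 and −0.34, and all 3 passed adjustment (limma adjusted p = 0.00453, 0.00352 and 0.0171). The share of all probe sets that passed in that fit was not counted, so these calls cannot be set against it. Without both wt replicates 5 and 6, 0 factors passed, with 6.92% of probe sets called: the slopes were −0.26 for Pparg (limma adjusted p = 0.0614), −0.25 for Cebpa (limma adjusted p = 0.0501) and −0.30 for Ebf1 (limma adjusted p = 0.0916). In the same 18 mice the mean of the other macrophage markers gave calls for Pparg (−0.29), Cebpa (−0.28) and Ebf1 (−0.39), with 8.82% of probe sets called, and not for Klf15 (−0.29, limma adjusted p = 0.127).

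The slopes of Pparg and Cebpa on Adgre1 lay near 0 at an equal adipocyte list mean. With that mean in the fit, the slope was 0.034 for Pparg (95% interval −0.12 to 0.19) and −0.055 for Cebpa (95% interval −0.22 to 0.11). The list holds targets of both proteins, and its mean correlated with Pparg at r = 0.95 and with Cebpa at r = 0.93. That fit therefore leaves little of their variation to relate to Adgre1, and slopes near 0 decide nothing. For Klf15 the r with the list was 0.41, so the 2 cases are not alike. Adgre1 itself had a slope of −2.41 on the adipocyte list mean in the 18 mice (limma adjusted p = 0.00126) and of −0.68 in all 20 (limma adjusted p = 0.202).

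Ebf2 ran the other way. Its slope on Adgre1 was 0.29 (SE 0.13, limma adjusted p = 0.200) with r = 0.50 (permutation p = 0.0297) and rho = 0.42 (permutation p = 0.0788). Without cre replicates 9 and 7 r was 0.59 (permutation p = 0.0189), while without wt replicates 5 and 6 it was 0.32 (permutation p = 0.228). Within batches r was 0.43 in batch 1 (permutation p = 0.251) and 0.67 in batch 2 (permutation p = 0.0485). Rxra, Cebpb, Cebpd, Zfp423 and Ebf1 had slopes of −0.11, −0.05, 0.01, −0.13 and −0.17 over 20 mice, with limma adjusted p-values from 0.505 to 0.977.

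Set against the adipocyte list mean, a comparison added after the values were seen, 5 of the 9 factors rose with it, and 4.53% of probe sets had a positive slope past adjustment. The slopes, in log2 units per log2 unit, were 0.91 for Pparg (limma adjusted p = 3.11e-06), 0.86 for Cebpa (limma adjusted p = 1.53e-05), 0.55 for Rxra (limma adjusted p = 0.00197), 1.17 for Zfp423 (limma adjusted p = 0.00078) and 0.61 for Ebf1 (limma adjusted p = 0.0131). Pearson's r was 0.95 for Pparg (permutation p = 1e-05, the smallest that 100000 resamples give; rho = 0.79, permutation p = 0.00047) and 0.93 for Cebpa (permutation p = 0.00036; rho = 0.86, permutation p = 0.00023), with n = 20. Wt replicates 5 and 6 are the mice farthest from the list's median. Without them r was 0.79 for Pparg (permutation p = 0.00048) and 0.66 for Cebpa (permutation p = 0.00824), and only Pparg, with a slope of 0.80 (limma adjusted p = 0.0397), and Zfp423, with 1.52 (limma adjusted p = 0.0285), passed adjustment, beside 2.51% of probe sets with a positive slope called. The slopes of Cebpa, Rxra and Ebf1 were then 0.62, 0.46 and 0.74 (limma adjusted p = 0.144, 0.342 and 0.196). Klf15 had slopes of 0.29 over 20 mice and 0.70 without the 2 (limma adjusted p = 0.341 and 0.221). Ebf2 did not follow the adipocyte list, with slopes of −0.05 and −0.50 (limma adjusted p = 0.938 and 0.569). The list holds targets of PPARG and CEBPA, so it measures both fat cell content and the output of these factors, which cannot be told apart.

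**Figure D4:**
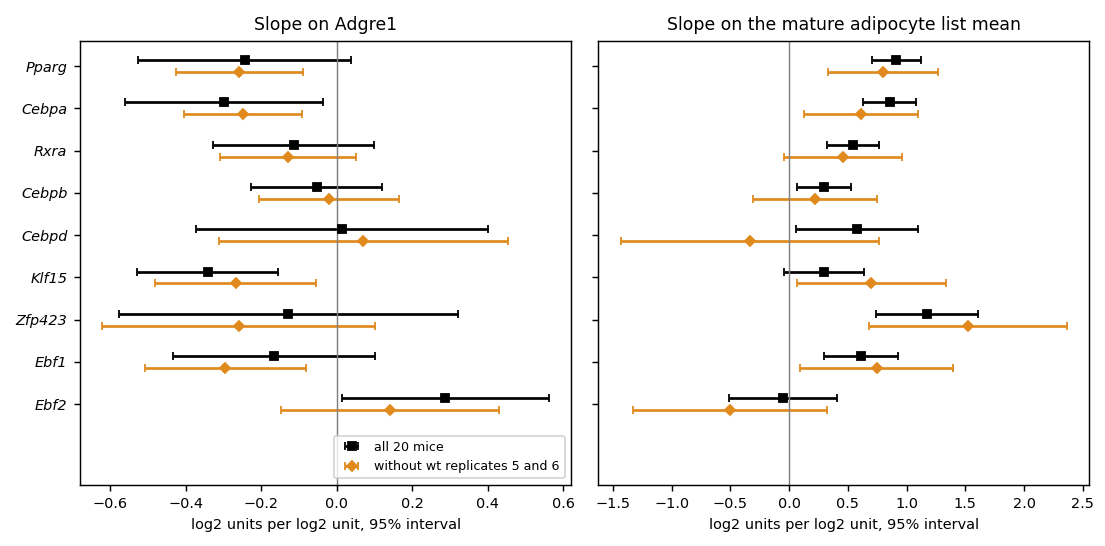
Slope of each factor on Adgre1 (left) and on the mean of the adipocyte list (right), in log2 units per log2 unit with 95% intervals, over all 20 mice (black squares) and without wt replicates 5 and 6 (orange diamonds). On the left the intervals of Klf15 and Cebpa stay below 0 in both sets of mice, and on the right the intervals of Pparg, Cebpa, Zfp423 and Ebf1 lie above 0 in both.

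A list of 10 measured markers of adipose progenitors and fibroblasts was also added after the values were seen. Against its mean 0 of the 9 factors passed adjustment by limma, where 5.50% of probe sets did. Ebf2 came nearest, with a slope of 0.80 (SE 0.24, limma adjusted p = 0.0540), r = 0.64 (permutation p = 0.00205) and rho = 0.55 (permutation p = 0.0157). Without wt replicate 5 and cre replicate 9, the mice farthest from this list's median, r was 0.58 (permutation p = 0.0136), and without wt replicates 5 and 6 the Ebf2 slope was 0.57 (limma adjusted p = 0.292) with r = 0.49 (permutation p = 0.0439). Cebpa and Klf15 had slopes of −0.57 and −0.55 (limma adjusted p = 0.209 and 0.119). Over 20 mice r was −0.45 for Cebpa and −0.54 for Klf15. Without wt replicate 5 and cre replicate 9 r was −0.13 for Cebpa (permutation p = 0.612) and −0.27 for Klf15 (permutation p = 0.313). Neither relation held without those 2 mice. Without wt replicates 5 and 6 r was −0.62 for Cebpa (permutation p = 0.0231) and −0.33 for Klf15 (permutation p = 0.205). The Cebpa relation thus depended on which mice were left out. The progenitor list and Adgre1 moved together over 20 mice (slope of Adgre1 1.33, limma adjusted p = 0.0277). Without wt replicates 5 and 6 that slope was 1.11 and did not pass adjustment (limma adjusted p = 0.183). The relations of Ebf2 to the list and to Adgre1 over 20 mice are therefore not separate observations.

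Among themselves the 9 factors form 36 pairs, of which 32 had a positive r over 20 mice, with a median of 0.41. The highest was that of Pparg and Cebpa (0.86, permutation p = 0.00266; rho = 0.75, permutation p = 0.00284) and the lowest that of Klf15 and Ebf2 (−0.62, permutation p = 0.00837; rho = −0.60, permutation p = 0.0111). Without wt replicates 5 and 6, 22 pairs were positive and the median was 0.15. Pparg and Cebpa then had r = 0.46 (permutation p = 0.131), and Klf15 and Ebf2 r = −0.46 (permutation p = 0.113). Pparg and Ebf1 changed least among these, with r = 0.84 over 20 mice (permutation p = 0.00356) and 0.82 over 18 (permutation p = 0.00941). In the fit on Pparg over all probe sets, Cebpa (slope 0.83), Rxra (0.50), Zfp423 (1.18) and Ebf1 (0.75) passed adjustment by limma, 4 of the other 8 factors beside 6.29% of probe sets. Without the 2 wt mice Ebf1 alone did, with a slope of 1.05 (limma adjusted p = 0.0288, 2.04% of probe sets called), and with the adipocyte list mean in the fit 0 did.

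**Figure D5:**
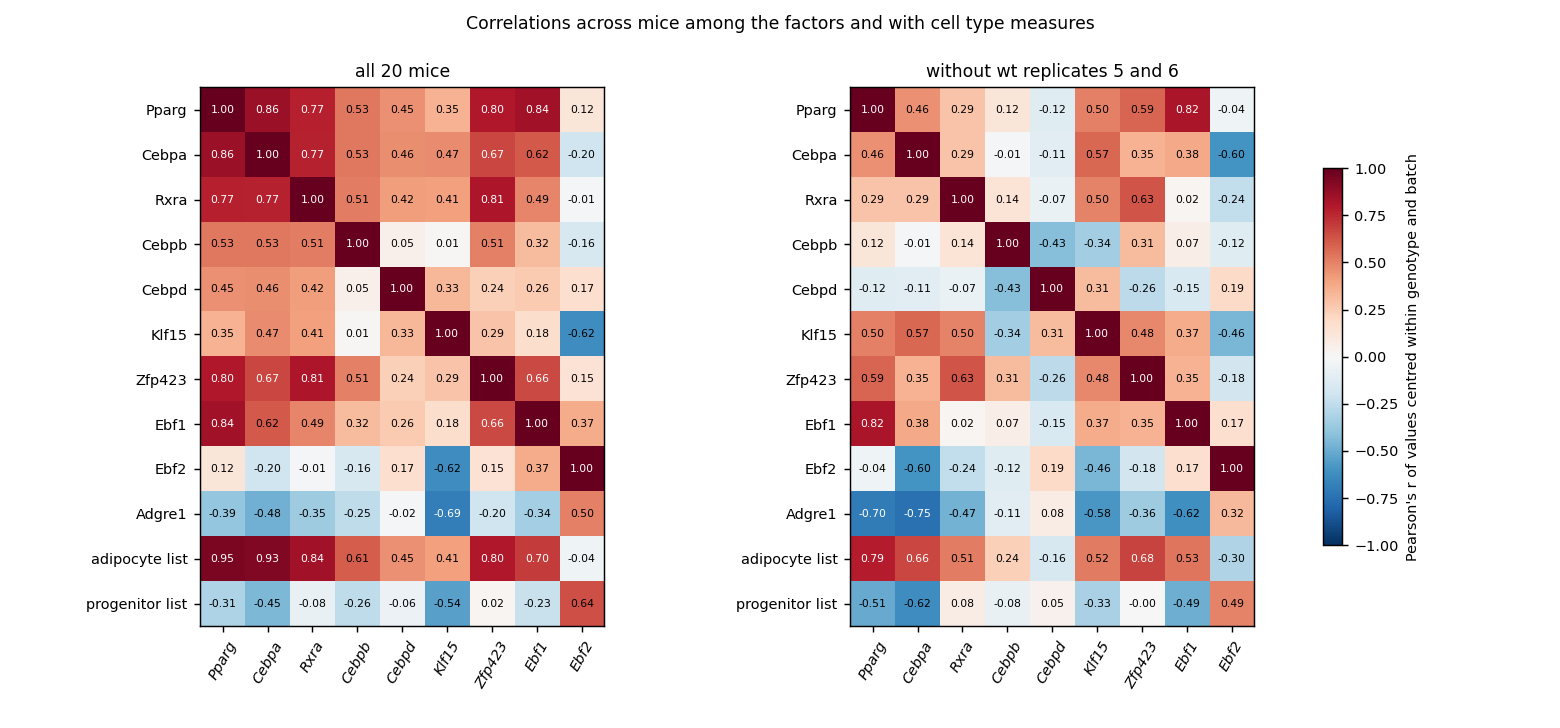
Pearson's r of log2 signals centred within genotype and batch, for each pair of factors and for each factor against Adgre1 and the adipocyte and progenitor lists, over 20 mice (left) and without wt replicates 5 and 6 (right), red for positive and blue for negative values. The block of high values among Pparg, Cebpa, Rxra and Zfp423 is paler on the right, where Pparg with Ebf1 stays at 0.82.

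The genes whose signals followed each factor most closely over 20 mice were taken from 11768 genes above the olfactory receptor level. For Pparg they were Tmem45b (r = 0.95) and Plin4, a lipid droplet coat protein gene (r = 0.95), and for Cebpa Hebp1 (r = 0.96), a heme-binding protein gene, and Timp4 (r = 0.95), a metalloproteinase inhibitor gene. Rxra was followed by Tcaf1 (r = 0.90) and the pyruvate carboxylase gene Pcx (r = 0.90). Klf15 was followed by the phospholipase gene Pla2g12a, with r = 0.89 both over 20 mice and without wt replicates 5 and 6, and by Bicdl1 (r = 0.84). For Zfp423 the leading genes were Slc35b4 (r = 0.93) and Tmem182 (r = 0.92), for Ebf1 Plce1 (r = 0.94) and Elmod3 (r = 0.91), and for Ebf2 Elk3 (r = 0.88) and Mapre1 (r = 0.86). For Cebpd they were Tsc22d3, the glucocorticoid-induced leucine zipper gene (r = 0.76), and Pknox1 (r = 0.76), and for Cebpb Mall (r = 0.80) and Fcer2a (r = 0.79). Without wt replicates 5 and 6 most of these pairs had a lower r. It was 0.82 and 0.80 for Pparg with Tmem45b and Plin4, and 0.87 and 0.85 for Cebpa with Hebp1 and Timp4. Rxra with Tcaf1 and Pcx had 0.76 and 0.71, and Ebf2 with Elk3 and Mapre1 had 0.75 and 0.78. Only Klf15 with Pla2g12a and Cebpd with Pknox1 (0.82) did not fall. These values describe the closest of many candidates and carry no test.

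Genes around the 9 factors in the pathway were read from the same fits. All 17 measured adipocyte markers and targets had higher means in cre mice, with a median difference of 0.31 and 0 past adjustment or an unadjusted p under 0.05. Over all genes 10046 of 19505 were higher in cre mice. The genes of a list were read in the same mice, so such counts do not hold separate observations. Without wt replicates 5 and 6, 6 of the 17 were higher in cre mice and the median was −0.02. Of 17 macrophage markers 16 had lower means in cre mice (median −0.39, 0 past adjustment). Without wt replicates 5 and 6 it was again 16 of the 17 (median −0.26, 0 past adjustment). The list mean of the macrophage markers ran from 10.45 to 13.05 in cre mice and from 11.98 to 13.74 in wt mice. The part of these cells in the adipocyte values was not tested. Against Adgre1 3 of the 17 had negative slopes past adjustment: the adipokine gene Retn (−0.77, limma adjusted p = 0.00971), Pck1 of glyceroneogenesis, a direct PPARG target (−1.18, limma adjusted p = 0.0133), and Pde3b, which mediates insulin's brake on lipolysis (−0.51, limma adjusted p = 0.0276). Over all genes 1285 of 19504 had a positive and 521 a negative slope past adjustment.

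Of 18 other activators of adipogenesis, 6 were higher and 12 lower in cre mice (median −0.08), with 0 past adjustment. Without wt replicates 5 and 6 the counts were 3 and 15 (median −0.07), again with 0 past adjustment. The zinc finger gene Egr2, which also marks macrophages, differed by −0.83 and Nfib by 0.35 at an unadjusted p under 0.05 (limma adjusted p = 0.785 and 0.770). Egr2 (slope 0.87, limma adjusted p = 5.81e-05) and Tfe3 (slope 0.50, limma adjusted p = 0.000559) rose with Adgre1. Of 18 restrainers, 12 were lower in cre mice (median −0.15, and −0.06 without wt replicates 5 and 6), again with 0 past adjustment. Tcf7l2, the transcription factor of Wnt signalling, differed by −0.54, the nuclear receptor gene Nr2f2 by −0.68 and Klf3 by −0.46 (limma adjusted p = 0.770 each). Tgfb1, whose product blocks adipogenesis, rose with Adgre1 (slope 0.53, limma adjusted p = 0.00012).

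Of 17 cofactors and partners of PPARG and C/EBP proteins, 10 were higher and 7 lower in cre mice (median 0.02), with 0 past adjustment, and without wt replicates 5 and 6 the counts were 7 and 10 (median −0.04). Ppargc1a, the coactivator of mitochondrial genes, differed by 0.67 and Ncoa2 by 0.26 (limma adjusted p = 0.770 and 0.785). The coactivator genes Ncoa3 (slope 0.68, limma adjusted p = 9.44e-06), Ep300 (slope 0.37, limma adjusted p = 0.00416) and Crebbp (slope 0.21, limma adjusted p = 0.0387) rose with Adgre1. The median slope of these 17 was 0.05, against −0.02 over all genes, and was the slope of Cebpe. The mean signal of Cebpe (3.63) lay below the olfactory receptor level. So did those of Klf5 and Bmp2 among the activators, and of Dlk1, Wnt10b, Foxc2 and Hes1 among the restrainers. These genes are kept in the counts and medians of their lists, although their signals were not above background.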

How the data were processed

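Per the labels' protocols, RNA from the fat pads was amplified and biotin-labelled for expression arrays. For each of 20 mice the authors deposited log2 signals of 22206 probe sets. RMA, the mm10 build and version 4.0.2.15 of Transcriptome Analysis Console are named, per the submitters' processing notes. The sources used here give no filter and no batch adjustment. RMA usually makes the distributions of arrays alike and can thus hide a change common to most genes.

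Group, batch and replicate number came from the titles, which call the mice biological replicates. Gene names came from the platform annotation (19572 with 1 symbol, 0 with several, 2634 unnamed here), and where a gene had several, the highest mean stood for it. limma 3.58.1 in R 4.3.3 (lmFit, eBayes) was fitted over all probe sets with genotype and batch, or with a slope added, and p-values were adjusted by Benjamini-Hochberg at 0.05. Single factors were also tested by exact two-sided permutation of genotype within batches. Correlations used two-sided permutation within the 4 cells of genotype and batch, with 100000 resamples. On simulated data of this size with independent noise the fits recovered most of the changes put in. Those changes were larger than the genotype differences of the factors. The simulation thus does not show whether differences as small as theirs would be found. Permutations ran in Python 3.11.15 with pandas 2.3.3, SciPy 1.17.1 and NumPy 2.4.6. Figures were drawn in matplotlib 3.10.9.

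The factors and gene lists were chosen with earlier results of these data known. From each pathway list up to 3 genes per direction past adjustment on Adgre1 were named, and up to 3 with the smallest unadjusted p under 0.05 between genotypes. For each factor the 2 genes with the highest r were named. Alternatives were batch handling, a replicate block, another prior, filter, scaling, array weights, covariates, each genotype or batch alone and leaving out mice. The slopes on the adipocyte list, the progenitor list and Pparg, the fit without cre replicates 7 and 9 and the liver list as a covariate were added after the values were seen.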

Additional observations from a re-analysis of the deposited data

Results flagged for a closer look

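Of 24 groups of 10 mice tested for a single value far from the others, 2 held one, where chance gives about 1 in 20. Both were wt replicate 6. Its Zfp423 signal of 8.20 lay below the next wt value of 9.88, a gap of 0.467 of the whole range of the wt mice and just above the critical value. Its Ebf1 signal of 12.64 lay below the next wt value of 13.56, a gap of 0.470 of the range. The same mouse had the lowest adipocyte list mean (14.68), Pparg (12.20) and Cebpa (12.18). Without it the genotype difference was −0.06 for Zfp423, against 0.24 in all mice, and 0.16 for Ebf1, against 0.32. The cause was not tested.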

How the results depend on the processing

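The count of 0 factors past adjustment between genotypes held under every alternative run. The count of 1 factor past adjustment on Adgre1 was 2 in batch 1 alone (Pparg and Klf15), 3 with array weights and 0 in batch 2 alone, with the replicate block, without wt replicates 5 and 6, with the adipocyte list mean as a covariate, in cre mice alone, in wt mice alone and without cre replicates 7 and 9. The count of 5 on the adipocyte list was 3 in batch 1 alone and with the replicate block, 2 without wt replicates 5 and 6 and 0 in cre mice alone. The count of 0 on the progenitor list was 1 without a batch term, without the third of probe sets with the lowest means, with arrays centred on their medians and with the adipocyte list mean as a covariate, and 2 with array weights. The count of 4 on Pparg was 1 in batch 1 alone and without wt replicates 5 and 6, 2 with the replicate block and 0 with the adipocyte list mean as a covariate and in cre mice alone. Correlations with Adgre1 at a permutation p under 0.05 numbered 3 in all mice, 5 in batch 1 alone, 1 in batch 2 alone and 1 in wt mice alone. Leaving out 1 mouse at a time gave 0 to 3 calls on Adgre1 (0 without wt replicate 5, 3 without wt replicate 6), 3 to 5 on the adipocyte list (3 without wt replicate 6), 0 to 2 on the progenitor list (2 without wt replicate 6, 1 without wt replicate 2, wt replicate 3 or cre replicate 8) and 2 to 4 on Pparg (2 without wt replicate 6). Replicate numbers shared by the genotypes gave no clear sign of pairing. Over 10 pairs the correlation of deviations ran from −0.30 to 0.34, with 4 pairs over 0.1, and 2 of 10 cre mice matched their own number best. The titles state no pairing, and these correlations cannot exclude one. With the replicate block Klf15 had a slope of −0.21 on Adgre1 (limma adjusted p = 0.375). Smaller arms and added terms leave fewer degrees of freedom, and beyond that the cause was not tested. For most of these alternatives the share of all probe sets called was not counted. A change in the count of factors thus cannot be told from a change across the array.
The sign of some differences and slopes that had not passed adjustment turned. The genotype difference of Zfp423 was −0.21 in batch 1 alone, −0.12 without wt replicates 5 and 6, −0.091 with the adipocyte list mean as a covariate and −0.059 to 0.36 without single mice. That of Klf15 was −0.033 in batch 2 alone, −0.0081 with array weights, −0.037 without wt replicates 5 and 6, −0.025 with the adipocyte list mean, −0.038 with Adgre1 as a covariate and −0.061 to 0.14 without single mice. That of Rxra was 0.18 in batch 2 alone and −0.17 to 0.037 without single mice, that of Cebpa −0.0028 without wt replicates 5 and 6, and that of Cebpd −0.0093 with array weights and −0.033 without those 2 mice. Slopes on Adgre1 in batch 2 alone were 0.18 for Pparg, 0.067 for Cebpb, 0.084 for Zfp423 and 0.25 for Ebf1, with correlations of 0.17, 0.16, 0.054 and 0.29, and 0.34 for Cebpd. With the adipocyte list mean in the fit, slopes on Adgre1 were 0.034 for Pparg, 0.060 for Rxra, 0.043 for Cebpb, 0.28 for Zfp423 and 0.021 for Ebf1. The Cebpd slope on Adgre1 was −0.17 in batch 1 alone, −0.023 with quantile normalization again, −0.046 with array weights, −0.12 in cre mice alone and −0.077 to 0.15 without single mice. Its correlation was 0.0078 unadjusted, 0.095 in wt mice alone, 0.11 without the 2 mice farthest from the Adgre1 median and 0.077 without wt replicates 5 and 6. The Cebpb slope and correlation were 0.015 and 0.063 in cre mice alone, and its slope was −0.097 to 0.0083 without single mice. With the adipocyte list mean in the fit, the slopes of Cebpa and Rxra on Pparg, which had passed adjustment, were −0.028 and −0.26.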
